A study of Mus musculus with 6 samples.

Results

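The peaks of 10 Notch pathway genes were followed through the ATAC-seq data of freshly isolated muscle stem cells (MuSCs), the resident stem cells of skeletal muscle, to describe where their chromatin became more or less accessible to Tn5 transposase after loss of Taf4a, a subunit of the general transcription factor TFIID. The genes were the receptors Notch1, Notch2 and Notch3, the ligands Dll1 and Jag1, the nuclear factors Rbpj and Maml1 and the target genes Hes1, Hey1 and Heyl. Their peaks were those annotated to them by gene symbol (37 peaks) together with peaks without a gene that lay between the annotated start and stop of the gene (38 peaks). This gave 75 of the 75412 peaks in the table, all of which passed the minimum mean value of 10 that 75384 peaks reached. Rbpj held 16 peaks, Notch1 11, Notch2 10, Jag1 9, Notch3 8, Heyl 7, Hes1 5, Dll1 4, Maml1 3 and Hey1 2.

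Taf4a sKO mice carried Pax7CreERT, a tamoxifen-inducible Cre recombinase expressed from the Pax7 locus and thus in MuSCs, and Taf4a fl/fl alleles with exons 11 to 12 flanked by loxP sites, and were given tamoxifen. Control littermates carried the same floxed alleles, with or without the Cre allele, and the labels do not say which of these a given library came from. Tamoxifen is named for both genotypes in a body weight experiment of the study, and for the controls of these libraries the sources used here do not state it. Cells with SCA1, CD45 or CD31 on their surface had been depleted with magnetic beads, and MuSCs were then sorted for integrin alpha7 or the Pax7-zsGreen reporter. In all, 3 biological replicates of each genotype were measured, 1 library each of 50000 cells from adult C57BL/6 mice of 8 to 20 weeks and both sexes. The deposited value of a peak is its read count after the authors' depth normalization, rounded to a whole number. Summed over all peaks, these normalized values came to 37722015, 35226223 and 42803315 in the 3 control libraries. In the 3 Taf4a sKO libraries the sums were 44311913, 41661725 and 41948821. Such sums give the signal in peaks left after normalization and not the sequencing depth. The peak over exon 12 of the targeted gene (symbol Taf4, chr2:179922849-179923263) had control values of 65, 78 and 137 and Taf4a sKO values of 44, 22 and 25, so the genotypes did not overlap there. Differences at Taf4 were not confined to the floxed exons. Also without overlap, log2 changes were -0.83 over exon 7, -0.49 at chr2:179916955-179917641 and 0.55 at chr2:179979788-179980166. Over exon 1 the genotypes overlapped (-0.07).

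Notch receptors are membrane proteins that are cleaved when a ligand on a neighbouring cell binds them. The freed intracellular domain enters the nucleus, where it joins the DNA-binding protein RBPJ and a Mastermind coactivator and switches on target genes such as those of the HES and HEY repressor families. In resting MuSCs this signal is known to hold the cells in quiescence, and mice that lack Rbpj in MuSCs lose their stem cell pool.

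Outside the start sites, peaks of the receptor genes and Jag1 were often more accessible in Taf4a sKO MuSCs. Of the 10 peaks over the main start sites, in the values as deposited, none was called higher and 1, at Dll1, was called lower. Of the 75 peaks, 35 were higher and 6 lower (limma, adjusted p under 0.05), which is 46.7% and 8.0% of them. Among all 75384 peaks tested, 28.0% were called higher and 13.9% lower. The share depended on how a peak was assigned. Of the 37 annotated by symbol 13 were higher and 4 lower (35.1% and 10.8%), beside 22.5% and 11.5% of all peaks with a gene, and of the 38 inside a gene without an annotation 22 and 2 (57.9% and 5.26%), beside 33.4% and 15.6% of all such peaks. The median log2 change was 0.36 over the peaks of these genes and 0.11 over all peaks tested. Every Taf4a sKO value lay above every control value at 37 of the 75 peaks, against 32.3% of all peaks, and below at 6, against 18.0% of all peaks. Group means differed by over 2-fold at 6 peaks, of which 5 were gained, against 7.03% gained among all peaks, and 1 was lost, against 5.36% lost. With the libraries rescaled by TMM factors (a trimmed mean of ratios between libraries) the split was 29 higher and 11 lower, beside 25.4% and 22.3% of all peaks, and with each library scaled to its total signal in peaks it was 27 and 16, beside 23.4% and 25.8%. Under either scaling 3 peaks were gained and 2 lost, and after quantile normalization 3 and 1. Gained and lost below refer to the values as deposited. Rescaling by TMM factors moved the median of all peaks from 0.11 to -0.01, so small differences below are read against that shift. The difference between the shares of these genes and of all peaks was not tested.

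**Figure D1:**
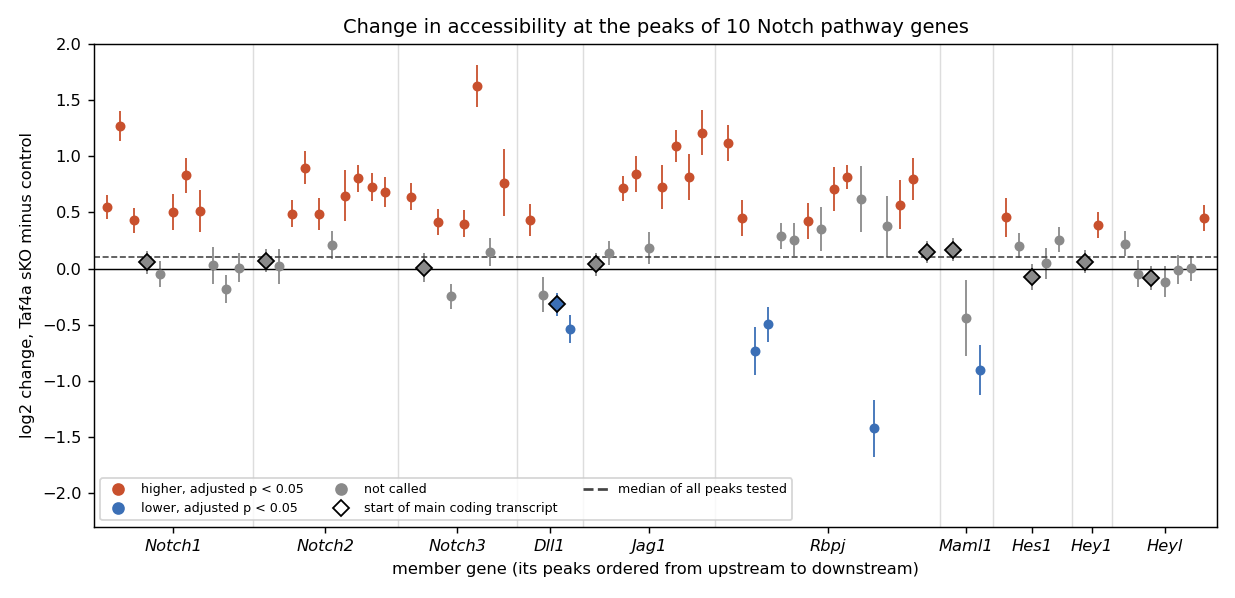
Log2 change (Taf4a sKO minus control, y axis, with its standard error) at each of the 75 peaks, grouped by gene along the x axis and ordered from upstream to downstream; colour gives the call, diamonds mark the peak over the start of the main coding transcript, and the dashed line is the median of all peaks tested. None of the 10 diamonds is called higher and 1, at Dll1, is called lower, while 35 of the other 65 peaks are called higher.

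The stretches of sequence that carried the clearest differences are given here so that the values can be read beside them. They are the 300 bases around the centre of the 6 peaks that differed by over 2-fold and of the Dll1 peak with the strongest fall, all on the plus strand of GRCm38 (mm10), and the 250 bases before the RefSeq start of Notch1 on its own strand (chr2:26503823-26504072), shown because this start site and the gained peak upstream of it behaved differently. Capitals mark matches, on either strand, to RBPJ (GTGGGAA), the HES E-box (CACGTG), the HES N-box (CACNAG), AP-1 (TGANTCA), the myogenic E-box (CAGCTG) and NF-Y (CCAAT); in the first Rbpj window an AP-1 and a HES E-box match overlap.
Notch1, chr2:26515912-26516211, gained: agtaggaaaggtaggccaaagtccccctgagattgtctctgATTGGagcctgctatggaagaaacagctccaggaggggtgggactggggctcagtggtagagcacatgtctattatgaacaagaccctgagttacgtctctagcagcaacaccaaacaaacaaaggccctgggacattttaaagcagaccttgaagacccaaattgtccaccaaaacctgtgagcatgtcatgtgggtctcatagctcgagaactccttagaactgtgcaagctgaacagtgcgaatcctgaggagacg
Notch3, chr17:32154196-32154495, gained: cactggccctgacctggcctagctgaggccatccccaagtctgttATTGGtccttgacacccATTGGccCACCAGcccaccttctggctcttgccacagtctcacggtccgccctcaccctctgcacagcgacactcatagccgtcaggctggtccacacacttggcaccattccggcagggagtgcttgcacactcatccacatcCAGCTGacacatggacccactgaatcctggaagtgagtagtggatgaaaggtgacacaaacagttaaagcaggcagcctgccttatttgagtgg
Jag1, chr2:137097226-137097525, gained: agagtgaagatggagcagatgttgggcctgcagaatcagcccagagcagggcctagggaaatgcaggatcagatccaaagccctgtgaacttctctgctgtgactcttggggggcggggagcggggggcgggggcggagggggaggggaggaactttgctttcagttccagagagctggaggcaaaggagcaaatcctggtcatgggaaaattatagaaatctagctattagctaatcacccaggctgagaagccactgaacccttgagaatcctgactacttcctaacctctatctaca
Jag1, chr2:137085294-137085593, gained: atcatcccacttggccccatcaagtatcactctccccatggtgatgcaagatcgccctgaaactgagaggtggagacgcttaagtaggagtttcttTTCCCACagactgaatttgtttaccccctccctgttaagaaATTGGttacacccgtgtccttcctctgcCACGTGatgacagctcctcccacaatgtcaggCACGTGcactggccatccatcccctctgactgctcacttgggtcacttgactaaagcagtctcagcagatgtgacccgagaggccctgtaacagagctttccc
Rbpj, chr5:53457340-53457639, gained: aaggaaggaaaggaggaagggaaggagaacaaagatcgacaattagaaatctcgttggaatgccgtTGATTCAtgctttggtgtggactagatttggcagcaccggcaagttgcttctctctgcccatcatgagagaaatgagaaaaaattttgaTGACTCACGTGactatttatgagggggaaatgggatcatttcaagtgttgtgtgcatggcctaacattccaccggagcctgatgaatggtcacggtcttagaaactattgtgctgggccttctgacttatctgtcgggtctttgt
Rbpj, chr5:53536156-53536455, lost: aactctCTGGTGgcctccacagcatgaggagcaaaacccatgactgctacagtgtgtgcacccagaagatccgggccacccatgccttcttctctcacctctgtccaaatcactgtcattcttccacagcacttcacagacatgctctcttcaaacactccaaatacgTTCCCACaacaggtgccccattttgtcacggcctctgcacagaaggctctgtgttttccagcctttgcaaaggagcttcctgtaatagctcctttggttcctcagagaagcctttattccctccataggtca
Dll1, chr17:15372078-15372377, lower: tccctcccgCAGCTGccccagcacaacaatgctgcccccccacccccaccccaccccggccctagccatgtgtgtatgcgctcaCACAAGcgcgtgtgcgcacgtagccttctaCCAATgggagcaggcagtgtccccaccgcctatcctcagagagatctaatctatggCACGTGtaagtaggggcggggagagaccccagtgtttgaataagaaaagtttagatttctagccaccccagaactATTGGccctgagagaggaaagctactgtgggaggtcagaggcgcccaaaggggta
Notch1 promoter, chr2:26503823-26504072: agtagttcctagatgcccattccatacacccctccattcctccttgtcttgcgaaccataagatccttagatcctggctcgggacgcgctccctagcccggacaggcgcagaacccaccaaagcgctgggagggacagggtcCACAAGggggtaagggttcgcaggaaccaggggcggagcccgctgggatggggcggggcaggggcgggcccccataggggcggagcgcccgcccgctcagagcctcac

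The main start site of a gene is taken here as the start of its protein-coding transcript with the greatest summed exon length in GENCODE vM21, and each of the 10 genes had a peak over it. None of these 10 peaks was called higher, 1 was called lower, and their median log2 change was 0.05, from -0.32 to 0.17. Of the other 65 peaks, 35 were higher and 5 lower, with a median of 0.42. With TMM factors the 10 start site peaks split into 0 higher and 3 lower and the other 65 into 29 and 8, and with total signal into 0 and 6 against 27 and 10. Of all peaks, 25.4% were higher and 22.3% lower with TMM factors, and 23.4% and 25.8% with total signal. Shares of all start site peaks under these scalings were not computed, so whether these counts are particular to the 10 genes was not tested. In the values as deposited, higher calls were also rarer near start sites in the table as a whole, and there lower calls were rarer too. At these genes 1 of 10 main start site peaks and 5 of 65 others were lower, a difference that was not tested. Of the 16 peaks of these genes within 1 kb of an annotated start site, 2 were higher and 2 lower (12.5% each). Of their 59 others, 33 were higher and 4 lower (55.9% and 6.78%). Among all 18994 peaks tested within 1 kb of an annotated start site 15.8% were higher and 8.03% lower, and among the 56390 others 32.1% and 15.9%. Peak height moved with it too: of the 4516 peaks with a control mean of 2000 or more 8.97% were higher, against 29.3% of those under 100, and 0 of the 10 such strong peaks of the Notch pathway genes were called. What height and position each add was not tested.

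Levels at these start sites can be ordered per length of peak. The control mean per kb was highest at Hey1 (2818) and lowest at Dll1 (1077), with Rbpj at 2424, Hes1 at 2301, Jag1 at 2242, Heyl at 2149, Notch2 at 1997, Maml1 at 1826, Notch3 at 1358 and Notch1 at 1169. Neighbours in this order overlapped in the range of their 3 control libraries, with 1 exception. It lay at the largest step, between Maml1, whose control libraries had 1821, 1611 and 2047 per kb, and Notch3, with 1326, 1209 and 1538. Hey1 stood above 97.3% of all peaks within 1 kb of a start site, and Dll1 above 61.5%.

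**Figure D2:**
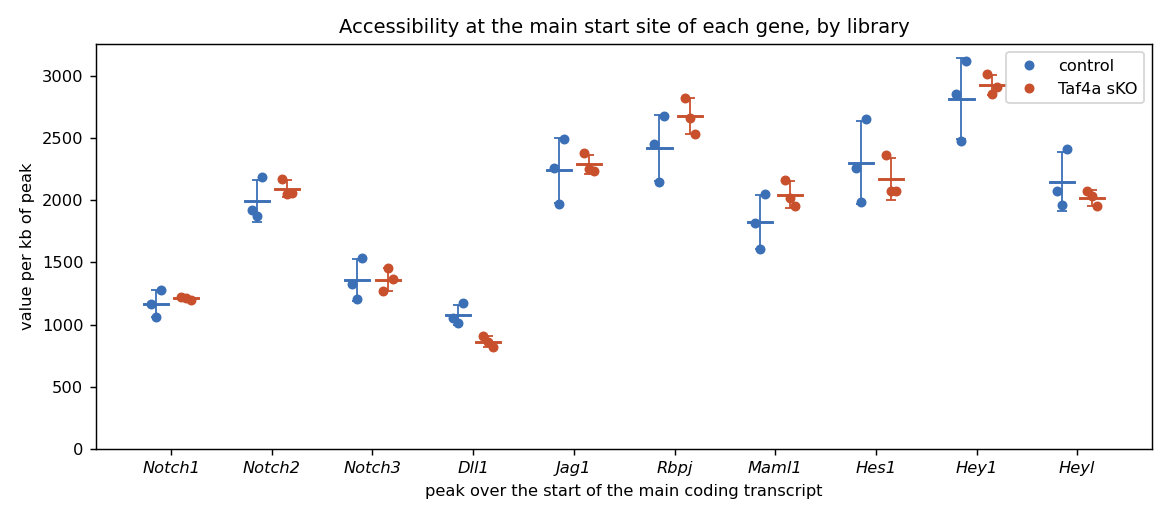
Value per kb of the peak over the main start site (y axis, from 0) for each gene (x axis) and library; points are libraries, horizontal lines group means and bars 1 SD (n = 3 per genotype). Control and Taf4a sKO libraries overlap at 9 of the 10 genes, and at Dll1 every Taf4a sKO library lies below every control library. Among all 18994 peaks tested within 1 kb of a start site, the genotypes overlap at 12025. Every Taf4a sKO library lies below every control library at 2470 of them and above at 4499.

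Each of the 3 receptor genes held higher peaks away from its main start site. Of their 29 peaks 18 were higher and 0 lower (62.1% and 0%), with a median log2 change of 0.49, beside 28.0% and 13.9% of all peaks and 33.6% and 15.7% of all intron peaks. With TMM factors 17 were higher and 2 lower, beside 25.4% and 22.3% of all peaks. Total signal gave 15 and 3, beside 23.4% and 25.8%, and quantile normalization 16 and 3, beside 24.8% and 25.1%.

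Notch1 (ENSMUSG00000026923), the receptor best known for its role in stem cell maintenance, had 6 of 11 peaks higher and 0 lower. Its widest difference was at chr2:26515266-26516859, 12.2 kb upstream of the main start site and over the first base of the transcript Notch1-206, which begins further upstream. There the control libraries had 308, 321 and 393 and the Taf4a sKO libraries 735, 782 and 947, a log2 change of 1.27 (standard error 0.13, adjusted p = 1.6e-07). All Taf4a sKO values exceeded the highest control value by a wide margin. The main start site itself, under the peak chr2:26501686-26504258 over exons 1 and 2, had 3002, 2733 and 3286 in control and 3146, 3127 and 3075 in Taf4a sKO libraries (log2 change 0.06, adjusted p = 0.69), so these groups overlapped. Both starts of Notch1 thus lay in open chromatin, and in the values as deposited only the upstream one was called. With total signal the main start site was called lower (-0.09, adjusted p = 0.046). Around them, an intergenic peak 22.2 kb upstream (chr2:26525411-26526637) rose from 838, 812 and 973 to 1368, 1180 and 1283 (log2 change 0.55, adjusted p = 3.7e-04). A further peak 3.9 kb upstream (chr2:26507400-26508125) rose from 985, 891 and 1080 to 1385, 1241 and 1346 (log2 change 0.43, adjusted p = 0.0028). Within intron 2, 10.3 kb downstream of the main start (chr2:26493303-26493771), values went from 131, 131 and 181 to 255, 260 and 265 (log2 change 0.83, adjusted p = 2.2e-04). In none of these 3 peaks did the genotypes overlap. The remaining intron 2 peaks were mixed: those 9.0 and 12.5 kb downstream were higher by 0.50 and 0.51, whereas those 3.0, 14.9, 16.1 and 18.2 kb downstream had log2 changes of -0.05, 0.03, -0.18 and 0.01 that did not pass the test.

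Notch2 (ENSMUSG00000027878), a second receptor found on MuSCs, had 7 of 10 peaks higher and 0 lower, all of them intronic. The peak over its start site (chr3:98013123-98014393, exon 1) had 2447, 2386 and 2783 in control and 2759, 2608 and 2619 in Taf4a sKO libraries (log2 change 0.07, adjusted p = 0.60). In intron 1, 33.1 kb downstream (chr3:98046411-98046782), the values were 172, 223 and 237 against 400, 377 and 392, a log2 change of 0.90 (standard error 0.15, adjusted p = 3.8e-05). Its 300-base window held matches to RBPJ, the HES E-box, the HES N-box and the myogenic E-box. Neighbouring peaks in intron 5 rose together. At chr3:98092755-98093512 values went from 522, 515 and 675 to 920, 1061 and 988 (log2 change 0.80, adjusted p = 1.8e-05), and at chr3:98094635-98095649 from 524, 483 and 641 to 905, 966 and 846 (log2 change 0.73, adjusted p = 5.7e-05). Farther down, over intron 11 and exon 12 (chr3:98106471-98107294), control libraries had 483, 369 and 496 and Taf4a sKO libraries 747, 722 and 680 (log2 change 0.68, adjusted p = 2.0e-04). The genotypes were separate at each of these 4 intragenic peaks. Inside the same gene lay 7 more peaks that the table annotates to ENSMUSG00000105728, a transcript model to be experimentally tested, and that were thus not counted; 3 of them were higher and 0 lower.

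Notch3 (ENSMUSG00000038146), a receptor that MuSCs share with vascular smooth muscle cells and pericytes, had 5 of 8 peaks higher and 0 lower. The largest change among all 75 peaks was over its exon 10 (chr17:32154093-32154600), 12.5 kb downstream of the start. Values there rose 3.12-fold, from 46, 52 and 49 in the control to 143, 152 and 164 in the Taf4a sKO libraries (log2 change 1.62, standard error 0.19, adjusted p = 4.5e-07). This was a weak peak in control cells, with a mean of 96.5 per kb against 1358 per kb at the start site. The start site peak (chr17:32166778-32167102) was at 431, 393 and 500 in control and 412, 473 and 443 in Taf4a sKO libraries (log2 change 0.01, adjusted p = 0.96). An intergenic peak 6.4 kb upstream (chr17:32172789-32173707), with an RBPJ match in its window, rose from 670, 552 and 559 to 1031, 862 and 880 (log2 change 0.64, adjusted p = 1.8e-04). In intron 1 (chr17:32165173-32166398) the libraries went from 704, 624 and 755 to 887, 940 and 947 (log2 change 0.42, adjusted p = 0.0049). In intron 2 (chr17:32161853-32162469) they went from 642, 574 and 742 to 885, 867 and 818 (log2 change 0.40, adjusted p = 0.0092), a call that was lost without control replicate 2 (adjusted p = 0.053) and after quantile normalization (adjusted p = 0.054). Between these, the peak 2.6 kb downstream had the lowest log2 change of any receptor peak, -0.25 (adjusted p = 0.083).

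**Figure D3:**
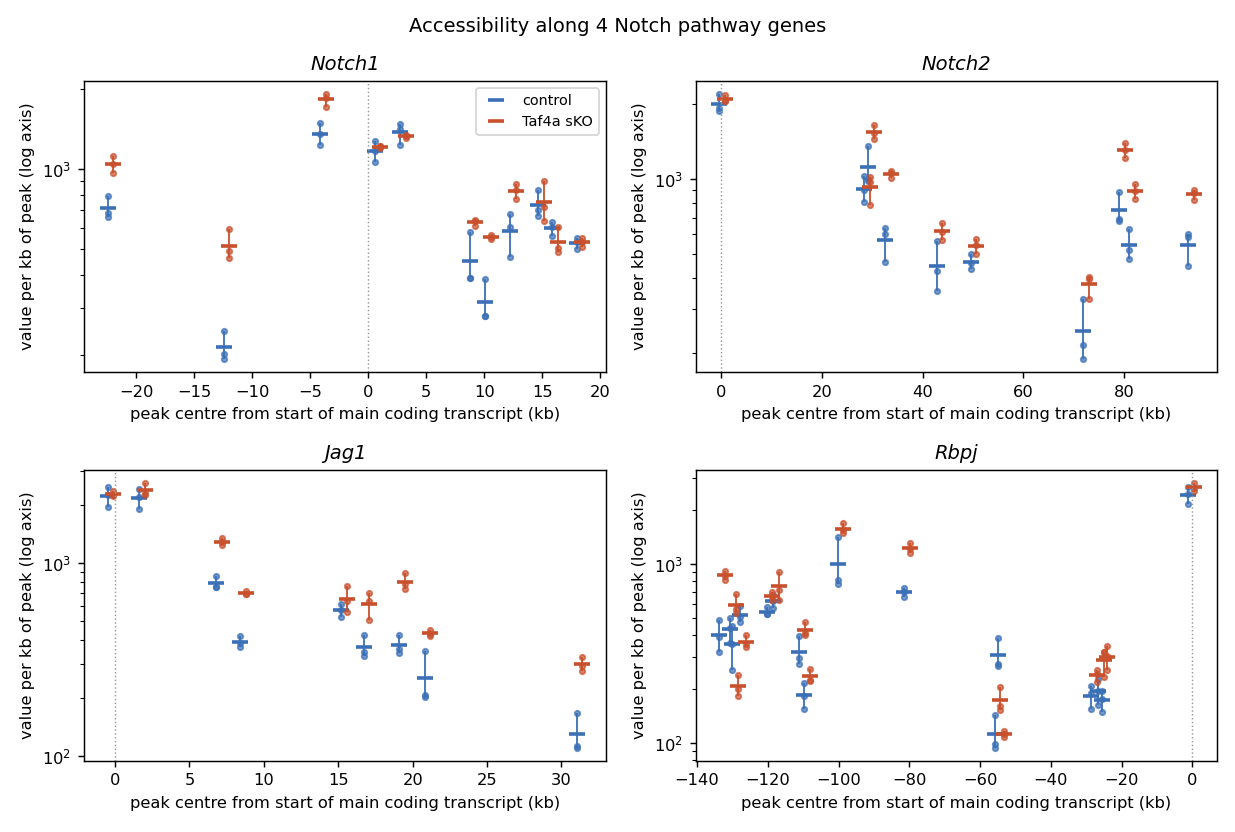
Value per kb of peak (y axis, log scale) against the distance of the peak centre from the main start site in kb (x axis) along Notch1, Notch2, Jag1 and Rbpj; points are libraries, vertical lines their range and short bars the group means, with the genotypes drawn slightly apart. At distance 0 the genotypes coincide in all 4 genes, and most of the peaks away from it are higher in Taf4a sKO, with Rbpj also holding 3 peaks that are lower.

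The ligand genes went different ways. Jag1, which encodes a transmembrane ligand, had 6 of 9 peaks higher and 0 lower, and Dll1, the Delta-type ligand known to be expressed in the muscle lineage, had 1 of 4 higher and 2 lower. Their medians were 0.73 and -0.28 on the log2 scale. The 6 higher calls at Jag1 numbered 6 under each of the 3 other scalings as well, while Dll1 had 0 higher and 3 lower under each of them.

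Jag1 (ENSMUSG00000027276) had its start site peak (chr2:137116194-137117747) at 3507, 3066 and 3880 in control and 3694, 3500 and 3480 in Taf4a sKO libraries (log2 change 0.04, adjusted p = 0.81), but with total signal it was called lower (-0.11, adjusted p = 0.015). The other called differences lay downstream. In intron 2, 7.0 kb in (chr2:137109196-137110161), values rose from 729, 730 and 834 to 1246, 1203 and 1307 (log2 change 0.71, adjusted p = 1.5e-05), and at 8.6 kb (chr2:137107920-137108189) from 99, 104 and 113 to 186, 188 and 194 (log2 change 0.84, adjusted p = 1.9e-04). In intron 5, 19.3 kb in (chr2:137097077-137097676), the control libraries had 215, 205 and 256 and the Taf4a sKO libraries 441, 532 and 466, a log2 change of 1.09 (standard error 0.14, adjusted p = 2.1e-06). None of the 6 motifs was matched in that window. At the far end of the gene, over intron 21 and exon 22 (chr2:137085205-137085684), values rose from 54, 53 and 80 to 133, 140 and 157, a log2 change of 1.21 (standard error 0.20, adjusted p = 3.6e-05). That window held an RBPJ match and a pair of HES E-box matches. Control and Taf4a sKO values were apart at all 4 peaks, and the spread within the Taf4a sKO group was small beside the distance between the groups. These 4 were picked by smallest p among the called peaks, so that separation follows in part from the choice.

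Dll1 (ENSMUSG00000014773) was the only gene of the 10 whose main start site peak was called in the test as deposited. That peak (chr17:15375228-15376825) fell from 1677, 1618 and 1869 to 1452, 1376 and 1304, which is 0.800 times the control mean (log2 change -0.32, standard error 0.10, adjusted p = 0.016). Without Taf4a sKO replicate 2 or 3 the adjusted p was 0.060 and 0.11. In intron 4 of the gene (chr17:15371897-15372559), also within 1 kb of the start of a shorter transcript, values fell from 664, 698 and 701 to 544, 433 and 450, or 0.692 times the control mean (log2 change -0.54, standard error 0.12, adjusted p = 0.0013). Both peaks had every Taf4a sKO value below every control value. An intergenic peak 4.8 kb upstream (chr17:15380549-15381035) went the other way, from 377, 284 and 302 to 394, 428 and 470 (log2 change 0.43, adjusted p = 0.017), but with TMM factors its adjusted p was 0.065.

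**Figure D4:**
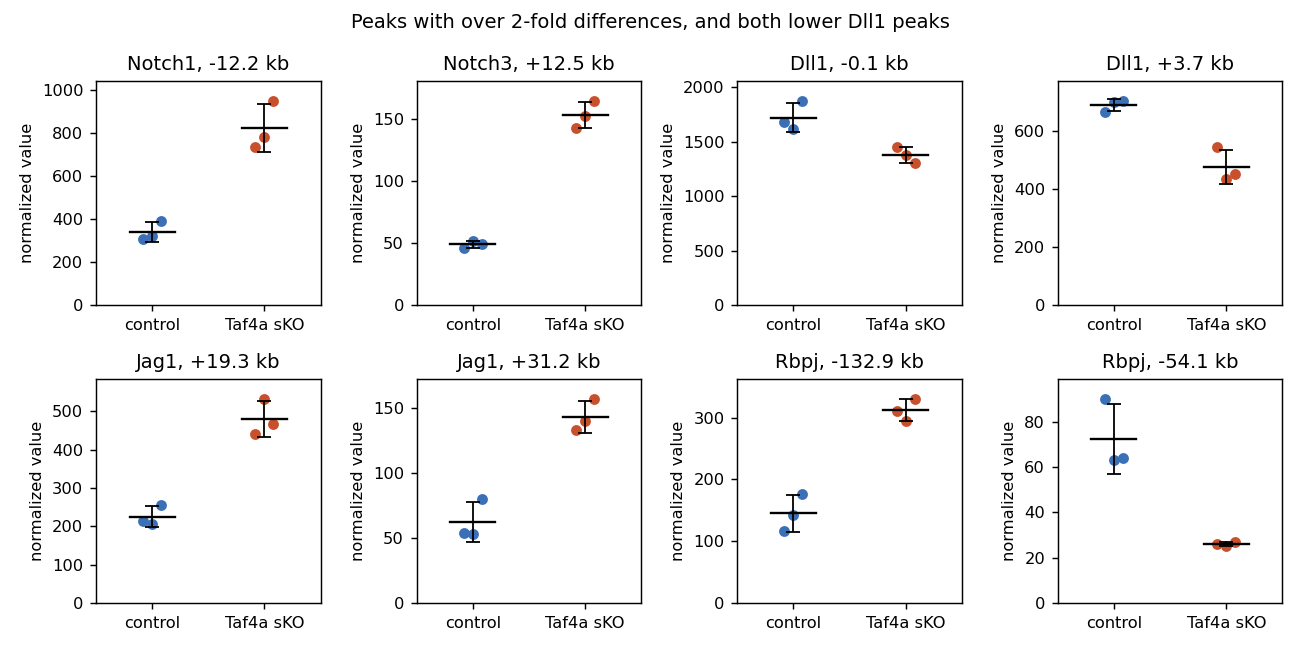
Normalized value (y axis, from 0) by genotype for the 6 peaks with over 2-fold differences and for both lower Dll1 peaks, each titled by gene and distance from the main start site; points are libraries, lines means and bars 1 SD (n = 3). The genotypes do not overlap in any panel, and the changes run from 3.12-fold at Notch3 to 0.359 times at the lost Rbpj peak.

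Among the nuclear factors, Rbpj (ENSMUSG00000039191), the DNA-binding partner of every Notch receptor, had 7 of 16 peaks higher and 3 lower. With TMM factors, total signal or quantile normalization it had 4 higher and 3 lower, or 25.0% and 18.8%, beside 25.4% and 22.3%, 23.4% and 25.8%, and 24.8% and 25.1% of all peaks, so its share of higher peaks was then near that of the table. Its main start site peak (chr5:53588757-53591114) was the strongest of all 75 by value, at 5777, 5063 and 6309 in control and 6665, 6276 and 5983 in Taf4a sKO libraries (log2 change 0.15, adjusted p = 0.26), and the groups overlapped. The other 15 peaks lay far upstream of it, along and before the transcript Rbpj-210, which begins there. The gained peak lay 132.9 kb upstream (chr5:53457310-53457671), where values rose from 117, 142 and 176 to 311, 295 and 330 (log2 change 1.12, standard error 0.16, adjusted p = 7.7e-06). The peak of the table nearest to the start of that transcript, 127.1 kb upstream (chr5:53463071-53463470), instead fell from 190, 231 and 202 to 160, 137 and 143 (log2 change -0.50, adjusted p = 0.013). That call was lost without control replicate 2 (adjusted p = 0.078) or Taf4a sKO replicate 2 (adjusted p = 0.054). Between them a further peak, chr5:53460979-53461288, was lower by 0.73 (adjusted p = 0.0084). Inside the long first introns, the peak 80.6 kb upstream (chr5:53509224-53510261) rose from 764, 677 and 719 to 1350, 1199 and 1252 (log2 change 0.81, adjusted p = 2.9e-06) and the peak 24.8 kb upstream (chr5:53565369-53565828) from 81, 68 and 90 to 117, 160 and 141 (log2 change 0.80, adjusted p = 0.0015). The lost peak, 54.1 kb upstream (chr5:53536190-53536422), fell from 90, 63 and 64 to 26, 25 and 27, or 0.359 times the control mean (log2 change -1.42, standard error 0.25, adjusted p = 8.7e-05). Its window held an RBPJ match. Gained and lost peaks thus lay within the same upstream region of 1 gene, with separate genotypes at each of these 6 peaks.

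That region also held 5 peaks annotated to the antisense transcripts ENSMUSG00000106807 and ENSMUSG00000107111 and not counted with Rbpj. Of these, 1 was higher and 2 lower. One was singled out after its values were seen: chr5:53518964-53519546, with control values of 403, 391 and 514 and Taf4a sKO values of 42, 93 and 68 (log2 change -2.73, standard error 0.23, adjusted p = 4.9e-07), a wider difference than at any of the 75 peaks.

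Maml1 (ENSMUSG00000050567), a Mastermind coactivator, had 0 of 3 peaks higher and 1 lower. Its start site peak (chr11:50291364-50292862) was at 2729, 2415 and 3068 in control and 3244, 3026 and 2926 in Taf4a sKO libraries (log2 change 0.17, adjusted p = 0.21). A peak over exon 2, 26.3 kb downstream (chr11:50265797-50266185), fell from 81, 100 and 89 to 61, 44 and 40 (log2 change -0.90, standard error 0.22, adjusted p = 0.0021), with the genotypes apart.

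The target genes had the smallest median change of the 4 roles. Of 14 peaks at Hes1, Hey1 and Heyl, 3 were higher and 0 lower (21.4% and 0%), with a median log2 change of 0.05. Of all peaks, 28.0% were higher and 13.9% lower. With TMM factors the split was 2 and 2 (14.3% each, beside 25.4% and 22.3% of all peaks) and the median -0.06. With total signal it was 2 and 5 (14.3% and 35.7%, beside 23.4% and 25.8%), so no direction is given for these genes as a group.

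Hes1 (ENSMUSG00000022528), a repressor of the HES family, had broad signal on both sides of its start. The peak over the main start (chr16:30064894-30065604) had 1609, 1413 and 1886 in control and 1681, 1474 and 1477 in Taf4a sKO libraries (log2 change -0.08, adjusted p = 0.63), but it was called lower with TMM factors (-0.19, adjusted p = 0.022), total signal (-0.22, adjusted p = 0.0040) and quantile normalization (-0.22, adjusted p = 0.0040). The stronger peak just upstream (chr16:30063133-30064505) had 3953, 3521 and 4723 against 5050, 4408 and 4511 (log2 change 0.20, adjusted p = 0.14), and was called higher after quantile normalization (0.11, adjusted p = 0.011). The values of the genotypes overlapped at both. The only Hes1 peak past the threshold lay 8.1 kb upstream (chr16:30056977-30057530), at 181, 136 and 200 in control and 290, 195 and 226 in Taf4a sKO libraries (log2 change 0.46, adjusted p = 0.041). Its genotypes overlapped, and the call was lost under TMM factors (adjusted p = 0.079) and without several single libraries, among them control replicate 2 (adjusted p = 0.25).

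Hey1 (ENSMUSG00000040289) and Heyl (ENSMUSG00000032744), repressors that are known to be needed together for MuSC quiescence, had 1 higher peak each. Over the Hey1 start (chr3:8666718-8668149) values were 4093, 3544 and 4467 in control and 4314, 4085 and 4166 in Taf4a sKO libraries (log2 change 0.06, adjusted p = 0.67), and with total signal the peak was called lower (-0.09, adjusted p = 0.040). The other Hey1 peak, over exon 5 (chr3:8664625-8664977), rose from 600, 583 and 721 to 802, 839 and 841 (log2 change 0.39, adjusted p = 0.010), though after quantile normalization its adjusted p was 0.073. The Heyl start (chr4:123233349-123234111) had 1580, 1497 and 1842 in control and 1585, 1551 and 1490 in Taf4a sKO libraries (log2 change -0.08, adjusted p = 0.56), but it was called lower with TMM factors (-0.20, adjusted p = 0.0068), total signal (-0.23, adjusted p = 0.0014) and quantile normalization (-0.23, adjusted p = 0.0011). The other 5 Heyl peaks had log2 changes from -0.12 to 0.22 that did not pass the test. The peak at the last exon of Heyl (exon 5, chr4:123246908-123247837) rose from 1221, 986 and 1285 to 1732, 1447 and 1570 (log2 change 0.45, adjusted p = 0.0030), without overlap of the genotypes. It lay next to a peak annotated to a processed pseudogene, ENSMUSG00000083720, which was lower by 0.33 (adjusted p = 0.025) and was not counted.

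To compare within a library, where depth and scaling cancel, the values of a gene's other peaks were summed and set against its start site peak as a log2 ratio. With the peak over the main start site as reference, a choice made after seeing that the start in the table differs for Notch1, Rbpj and Hes1, the ratio was higher in every Taf4a sKO library than in every control library at 8 of the 10 genes, lower at Maml1 and overlapping at Heyl. Among all 6134 genes with such a peak and at least 1 other, this ratio was higher in every Taf4a sKO library at 30.5% and lower at 24.9%. The difference was 0.49 at Notch2, from 0.69 ± 0.091 (SD, n = 3) in control to 1.19 ± 0.069 (SD, n = 3) in Taf4a sKO (two-sided exact permutation test, p = 0.1). For Jag1 it was 0.35, from 0.29 ± 0.043 (SD, n = 3) to 0.65 ± 0.010 (SD, n = 3) (exact permutation test, p = 0.1). It came to 0.36 at Rbpj, 0.32 at Notch1, 0.29 at Hes1, 0.25 at Notch3, 0.33 at Hey1 and 0.15 at Dll1, in each case with the smallest p that 3 libraries against 3 allow, 0.1, so this comparison cannot pass 0.05. With the peak nearest the start of the table as reference, 6 genes were higher and 3 lower, beside 28.8% and 25.1% of 11200 genes. The difference was then -1.08 at Notch1, -0.10 at Hes1 and 0.80 at Rbpj. Heyl had a difference of 0.15 (exact permutation test, p = 0.3).

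Summed over all peaks of a gene, only 3 of the 10 genes passed the test across 21335 genes. Notch2 rose from 6666 ± 834 (SD, n = 3) to 8723 ± 39.0 (SD, n = 3) (log2 change 0.40, adjusted p = 0.0026) and Rbpj from 9167 ± 953 (SD, n = 3) to 11190 ± 338 (SD, n = 3) (log2 change 0.29, adjusted p = 0.038). Dll1 fell from 2973 ± 175 (SD, n = 3) to 2490 ± 116 (SD, n = 3) (log2 change -0.26, adjusted p = 0.040). Of all genes, 22.3% were higher and 10.7% lower by this measure. Notch1, Jag1 and Notch3 had log2 changes of 0.26, 0.24 and 0.24 (adjusted p = 0.069, 0.094 and 0.085) without overlap of the genotypes, and Maml1, Hes1, Hey1 and Heyl, at 0.14, 0.16, 0.11 and 0.05, overlapped. These 3 calls were not firm: without control replicate 1 none of the 10 genes was called, beside 15.5% higher and 8.76% lower of all genes, and without control replicate 3, 8 were higher and 1 lower, beside 39.7% and 10.5%. With the replicate number as a block, 1 gene was higher and 0 lower, so the Dll1 call was lost, beside 20.8% and 10.2% of all genes.

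RBPJ matches (GTGGGAA on either strand) were found in the 300-base windows of 12 of the 75 peaks, 16.0%, in 8 of the 10 genes, and in 7.52% of all peaks of the table. Of the 35 higher peaks 6 held one. Matches to the HES E-box were in 9.33% of the 75 peaks and 5.76% of all peaks, to the HES N-box in 52.0% and 49.2%, to AP-1 in 24.0% and 22.0%, to the myogenic E-box in 26.7% and 29.1%, and to NF-Y in 24.0% and 32.2%. Among 250-base promoter stretches of RefSeq, 36.7% held the HES N-box that the Notch1 promoter shows. RefSeq promoter entries were matched for 7 of the 10 genes, all but Hes1, Hey1 and Heyl. A match is a run of letters and not a measured binding site.

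With all 6 libraries in the fit, the rest of the pathway lay near the shares of all peaks. Over 68 further genes, 64 of them with a peak, 268 peaks were tested, of which 67 were higher and 36 lower (25.0% and 13.4%), with a median log2 change of 0.11, beside 28.0% and 13.9% among all peaks. Split by role, the other ligands and receptors had 3 higher and 1 lower of 14 peaks, the genes of receptor processing and modification 5 and 6 of 26, those of trafficking and turnover 11 and 3 of 53, the nuclear cofactors and corepressors 31 and 17 of 102, and the other target genes 17 and 9 of 73. Lower calls depended on the scaling, with 67 under TMM factors and 79 under total signal, which is 25.0% and 29.5%, beside 22.3% and 25.8% of all peaks.

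Named by the size of their change, single peaks of these lists went both ways. An intronic peak of Tle3, a Groucho-type corepressor (chr9:61378145-61379076), rose from 682, 755 and 941 to 2402, 2046 and 2191 (log2 change 1.49, standard error 0.12, adjusted p = 4.6e-09). In its relatives Tle4 and Tle1 intronic peaks fell, the former with a log2 change of -2.20 (adjusted p = 3.5e-07) and the latter from 108, 91 and 69 to 35, 27 and 30 (adjusted p = 3.0e-05). Higher by 1.35, 1.20 and 1.15 were peaks of Dtx4, a Deltex ubiquitin ligase, Ccnd1, which encodes cyclin D1, and Dner, a Notch-binding transmembrane protein.

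Collagen V genes, known Notch targets that MuSCs use to keep their niche, moved in opposite directions at single peaks. An intronic Col5a1 peak (chr2:27971682-27972448) fell from 383, 437 and 496 to 39, 52 and 54 (log2 change -3.16, standard error 0.17, adjusted p = 1.6e-11), while an intronic Col5a3 peak (chr9:20810362-20810692) rose from 190, 304 and 393 to 633, 600 and 639 (log2 change 1.14, adjusted p = 6.3e-04). Both were past 2-fold and without overlap. Also lower were peaks of Snw1, a nuclear cofactor of the Notch complex (log2 change -2.54), of Lfng, a fringe glycosyltransferase that modifies receptors (-2.24), and of Maml2, a relative of Maml1 (-1.38).

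**Figure D5:**
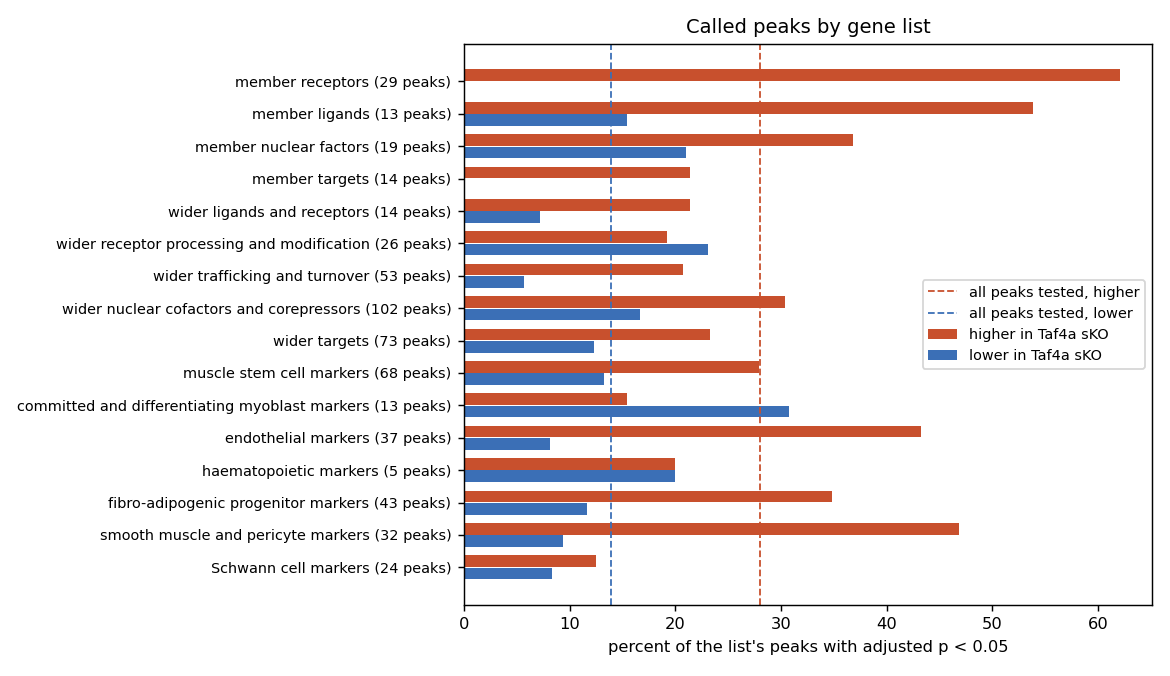
Percent of each gene list's peaks that are called higher (upper bar) or lower (lower bar) in Taf4a sKO (x axis, adjusted p under 0.05), with the number of peaks beside the list's name; dashed lines give the shares over all peaks tested. The member receptors have the longest upper bar, 62.1%, and the upper bars of the wider Notch lists run from 19.2% to 30.4%.

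Bulk ATAC-seq cannot tell a change in the share of a cell type from a change within cells. Peaks of MuSC marker genes were present for all 10 genes, Pax7 having the most signal (27990 in control and 28890 in Taf4a sKO, group means of the summed values), and 19 of 68 were higher and 9 lower. These are 27.9% and 13.2%, beside 28.0% and 13.9% of all peaks tested. With TMM factors they were 16 and 18 (23.5% and 26.5%), beside 25.4% and 22.3% of all peaks. Total signal gave 15 and 19 (22.1% and 27.9%), beside 23.4% and 25.8%, and quantile normalization 12 and 18 (17.65% and 26.5%), beside 24.8% and 25.1%. The sort was directed against cells with CD31, an endothelial surface protein, CD45, which Ptprc encodes in haematopoietic cells, and SCA1, which Ly6a encodes and fibro-adipogenic progenitors carry. The study's own reanalysis of sorted cells found them enriched but not pure. Smooth muscle and pericyte markers had 15 higher and 3 lower of 32 peaks (46.9% and 9.38%), and summed to 12114, 11454 and 13516 in control and 16037, 15366 and 15362 in Taf4a sKO libraries; Cspg4 had the most signal and Rgs5 no peak. Endothelial markers had 16 higher and 3 lower of 37 peaks (43.2% and 8.11%), and summed to 13266, 12614 and 15422 against 17035, 16253 and 15831, with Tek the most accessible and no peak at Emcn, Sox17 and Tie1. For both lists every Taf4a sKO library lay above every control library. Fibro-adipogenic progenitor markers had 15 higher and 5 lower of 43 peaks (most signal at Col15a1, no peak at Ly6a), Schwann cell markers 3 and 2 of 24 (most at Mbp), and haematopoietic markers 1 and 1 of 5, with no peak at Ptprc, Itgam, Cd3e and Laptm5, among others. Schwann cell markers had 1 higher and 6 lower with TMM factors, 1 and 10 with total signal and 1 and 8 with quantile normalization (25.0%, 41.7% and 33.3% lower). Markers of committed myoblasts had 2 higher and 4 lower of 13, most signal being at Myod1. Their part in the values of the Notch pathway genes was not tested.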

How the data were processed

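ATAC-seq of freshly isolated MuSCs was analysed, 3 control against 3 Taf4a sKO libraries. Per the labels and methods, the authors trimmed reads (Trimmomatic 0.39), aligned them to mm10 (STAR 2.7.11b), removed duplicates (Picard 3.1.1), called peaks with MACS, counted reads with featureCounts, scaled the counts for sequencing depth and annotated peaks to the nearest gene. A shift of reads for Tn5 is not described in the methods. The deposited values are such normalized counts rounded to whole numbers, treated here as a score and not as counts. They were tested with limma 3.58.1 (R 4.3.3; mean-variance trend, robust) on log2(value + 1); p-values were adjusted by Benjamini-Hochberg across the 75384 peaks whose mean exceeded 10. Log2 changes are on that scale, which understates changes of weak peaks, while folds and the gained and lost classes are ratios of group means. Exact permutation tests used SciPy 1.17.1. The fit was tested on simulated data with 200 changed peaks among 75258, where 49.7% were called, with 2% false. In the measured data far more peaks were called, 28.0% higher and 13.9% lower. Whether the values of 49.7% and 2% hold there was not tested.

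The 10 genes and all lists were chosen with earlier results of these data known. Values by library are given for each gene's peak nearest its start and for its called peaks, up to 4 by smallest p. Separation of the genotypes at such called peaks follows in part from that choice. Of the wider lists, up to 6 genes per direction are named by largest change; some items are not reported here. GENCODE vM21 and GRCm38 gave exons and sequence; 99.8% of the table's genes were in that annotation. Precision rests on 3 libraries per genotype, which the study states are biological replicates.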

Additional observations from a re-analysis of the deposited data

How the results depend on the processing

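The counts of higher peaks at the 10 genes stayed within 1.5 times their value of 35 under every scaling, filter and pseudocount tried and ran from 24 to 44 when single libraries were left out; restricted to peaks annotated to a member by symbol the count was 13 of 37 (4 lower), and adding the peaks of other genes inside the spans, an alternative chosen after seeing the data, it was 40 (9 lower). Lower peaks rose from 6 to 11 with TMM factors, 13 with quantile normalization and 16 with total signal in peaks. The median log2 change of the 75 peaks was 0.36, then 0.25 with TMM factors, 0.21 with total signal and 0.17 with quantile normalization, beside 0.11, -0.01, -0.04 and -0.02 over all peaks. With a 1.5-fold threshold 24 peaks were gained or lost (of all peaks tested, 19.4% gained and 11.5% lost), against 6 at 2-fold. At 2-fold, 3 were gained and 2 lost with TMM factors or total signal, and 3 and 1 with quantile normalization. The shares of all peaks gained or lost under these scalings were not set beside them.

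Called genes in summed signal numbered 2 higher and 1 lower, beside 22.3% and 10.7% of all genes. With TMM factors they were 5 and 1, beside 20.9% and 25.1%. Total signal gave 5 and 1, beside 18.4% and 32.4%, and quantile normalization 2 and 2, beside 22.1% and 24.7%. Leaving out single libraries gave 0 to 8 higher and 0 to 1 lower, beside 15.5% to 39.7% and 7.58% to 10.6% of all genes. Wider pathway peaks called lower went from 36 to 67 with TMM factors, 79 with total signal and 74 with quantile normalization (of all peaks 13.9%, 22.3%, 25.8% and 25.1%). Those called higher went from 67 to 46 without control replicate 2 and to 114 without control replicate 3. The median log2 change over all peaks was 0.05 and 0.17 in these 2 fits. The share of all peaks called was not set beside the left-out counts. Log2 changes turned negative and were called with total signal at the start site peaks of Notch1 (-0.093), Jag1 (-0.112) and Hey1 (-0.0883), and negative changes were called with TMM factors at those of Heyl (-0.195) and Hes1 (-0.188). The ratio of other peaks to the start site peak turned from -1.08 to 0.32 at Notch1 and from -0.10 to 0.29 at Hes1 with the main start site as reference. The causes were not tested.

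Replicate numbers did not pair the samples: deviations of same-numbered libraries correlated at 0.11, -0.12 and -0.03. With a replicate block the member counts stayed at 35 higher and 6 lower. Called gene sums went to 1 higher and 0 lower, beside 20.8% and 10.2% of all genes.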
